A study of Mus musculus with 2 samples.

Results

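Transcripts of 9 genes of retinal neurons were followed in mouse retinal cells that had been sorted for CD45, a protein on the surface of leukocytes and microglia. The genes were chosen by name: Sag, Gnat1, Gngt1, Pdc and Rcvrn for rods and Pcp2, Gng13, Trpm1 and Trnp1 for bipolar cells. All 9 were found among the 31053 genes of the deposited count tables. The question was whether their counts stood in retinal neurons that had passed the sort, or were spread thinly over microglia and border macrophages as carried or engulfed RNA would be.

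The data are 1 single-cell RNA library labelled Igfbpl-/1 (Igfbpl1-/- in the title of the series) and 1 labelled wildtype, both from retinas of C57BL/6 mice that had been perfused. The mice were 8 to 10 months old; the design text names 10 of each genotype, matched for sex, and a digestion with collagenase/dispase, papain and DNase for 1 hour at 37 °C. How many mice went into each library, which part of Igfbpl1 the knockout allele lacks and whether the deletion is confined to a cell type are not given in the sources used here. With 1 library per group there is no replicate, so no difference below has a test, and every interval (95%) covers counting error only.

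Counts are unique molecular identifiers (UMIs), each standing for 1 captured RNA molecule, and levels are counts per 1000000 UMIs (CPM) of a library or class. The library labelled knockout held 1785 barcodes with a median of 4251 UMIs, and the library labelled wildtype 2735 barcodes with a median of 3888 UMIs; 1 barcode sequence occurred in both. Igfbpl1 itself went against the labels, with 29 counts in the library labelled knockout (3.65 CPM, interval 2.44 to 5.24) and 2 counts in the library labelled wildtype (0.181 CPM, 0.0220 to 0.656). The groups are therefore called by their labels, on which every direction below rests. Filtering left 1761 and 2695 cells, of which 1194 and 2004 were microglia-like and 106 and 106 border macrophage-like by their marker genes; microglia-like cells held a median of 11 of 12 microglia markers in both libraries. A cluster led by Ttr and ribosomal protein genes, with 313 cells (17.8%) and 446 cells (16.5%), stayed unnamed because its first gene marks pigment epithelium. Ttr was counted in only 2 of those 313 cells (61 counts, 60 of them in 1 cell) and 1 of the 446 (83 counts), so that all of its counts in the cluster come from 3 cells.

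Rods detect dim light. Light leads to the activation of transducin, whose alpha and gamma subunits are the products of Gnat1 and Gngt1, and transducin in turn activates the phosphodiesterase that closes the cation channel of the outer segment. Arrestin, the product of Sag, shuts the cascade off again, recoverin (Rcvrn) is a calcium sensor that prolongs it, and phosducin (Pdc) binds the beta and gamma subunits of transducin. Rods signal to bipolar cells, and in those that respond to the onset of light the channel encoded by Trpm1 opens under the control of the glutamate receptor Grm6. Gng13 encodes a G protein gamma subunit of that cascade, Pcp2 a modulator of Go proteins that is abundant in rod bipolar cells, and Trnp1 a nuclear protein known from neural progenitors. Microglia are known to take up photoreceptor material in the retina.

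In the GRCm38 assembly, with GENCODE M21 genes, Sag lies at chr1:87803680-87845158 on the plus strand, Gnat1 at chr9:107674474-107679712 on the minus strand, and Gngt1 at chr6:3993792-3997436 on the plus strand. Pdc lies at chr1:150319417-150333906 and Rcvrn at chr11:67695326-67703333, both on the plus strand. The bipolar genes are Pcp2 at chr8:3623371-3625545 and Trnp1 at chr4:133491100-133498550 on the minus strand, and Gng13 at chr17:25717171-25719406 and Trpm1 at chr7:64153835-64269775 on the plus strand. Sag, Gnat1, Gngt1 and Trnp1 overlap no other annotated gene. Pdc, Rcvrn, Pcp2, Gng13 and Trpm1 each overlap a gene on the opposite strand (Pcp2 overlaps Pet100, Gng13 overlaps Chtf18 and Rcvrn overlaps Glp2r). On the same strand, Pdc also overlaps Gm37764, and Trpm1 overlaps Mir211 and Gm44719, which strand would not separate. Whether strand was used in counting is not given in the sources used here, so counts of these 5 genes could include some reads of their partners.

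RefSeq promoters (GRCm38.p6, 250 bases before to 50 after a start that RefSeq annotates) were found for 7 of the 9 genes, in 12 entries, some of them at starts inside the gene as given above; Gnat1 and Rcvrn had none. They were searched on both strands for TAATCC, the core that CRX and OTX2 bind in photoreceptors and bipolar cells, and TGCTGA, a part of the site that the rod factor NRL binds. TAATCC was present in 3 of the 12 entries, against 7.06% of 32851 promoters, and TGCTGA in 2 of the 12, against 19.48%. Neighbouring entries of Pcp2 overlap in sequence, so the 12 are not all separate. The 3 promoters with a TAATCC match are shown because they belong to the gene most often counted outside neurons (Sag), the most abundant rod gene of the 9 (Gngt1) and a bipolar gene (Trpm1, the first of its 2 entries). Capitals mark the matches, GGATTA being TAATCC read on the other strand.
Sag, chr1:87803430-87803729, plus strand: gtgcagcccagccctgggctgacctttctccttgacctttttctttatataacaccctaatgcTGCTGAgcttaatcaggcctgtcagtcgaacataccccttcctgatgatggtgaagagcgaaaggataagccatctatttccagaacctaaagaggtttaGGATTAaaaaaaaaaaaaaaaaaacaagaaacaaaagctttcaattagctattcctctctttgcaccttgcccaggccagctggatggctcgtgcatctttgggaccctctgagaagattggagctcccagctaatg
Gngt1, chr6:3993758-3994057, plus strand: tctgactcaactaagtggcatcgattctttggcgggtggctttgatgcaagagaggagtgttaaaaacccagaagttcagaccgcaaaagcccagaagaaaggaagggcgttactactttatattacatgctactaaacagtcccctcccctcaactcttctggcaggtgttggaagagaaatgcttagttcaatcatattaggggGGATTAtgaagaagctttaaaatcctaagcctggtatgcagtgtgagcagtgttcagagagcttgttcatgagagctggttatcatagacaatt
Trpm1, chr7:64153585-64153884, plus strand: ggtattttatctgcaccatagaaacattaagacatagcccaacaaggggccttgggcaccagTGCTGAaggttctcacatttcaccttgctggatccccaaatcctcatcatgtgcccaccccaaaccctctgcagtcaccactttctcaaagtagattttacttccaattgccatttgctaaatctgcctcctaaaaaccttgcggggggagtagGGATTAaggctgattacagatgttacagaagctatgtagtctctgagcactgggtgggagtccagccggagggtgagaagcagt
Counted from the RefSeq start of each entry, the GGATTA match began 87 bases before it in Sag, 44 in Gngt1 and 34 in Trpm1, and the TGCTGA match 187 bases before it in Sag and 188 in Trpm1. The RefSeq start of Gngt1 lies inside the GENCODE gene, and so does its match. A match describes these letters and is no evidence of binding. Its relation to where the genes were counted was not tested.

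Most barcodes held none of the 9 genes, and a few held nearly a full set. In the library labelled knockout 1647 barcodes had 0 of the genes, 108 had 1, 9 had 2, 0 had 3, 7 had 4 and 14 had 5. The library labelled wildtype had 2533 barcodes with 0, 166 with 1, 5 with 2, 4 with 3, 6 with 4, 20 with 5 and 1 with 6. At least 3 of the genes were counted in 21 barcodes labelled knockout and 31 labelled wildtype. Among filtered cells these were 19 of 1761 (1.08%, exact binomial interval 0.651 to 1.68) and 28 of 2695 (1.04%, 0.691 to 1.498), and the intervals overlap. Under a stricter filter (1000 UMIs, 500 genes, 10% mitochondrial counts) they were 7 of 1670 (0.419%, 0.169 to 0.862) and 22 of 2555 (0.861%, 0.5404 to 1.301), which turns the order; those intervals also overlap.

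No barcode with at least 3 rod genes had a bipolar gene, while some barcodes with at least 3 bipolar genes had a rod gene. Of the 21 labelled knockout, 12 had all 5 rod genes and no bipolar gene, and the other 9 had all 4 bipolar genes, 7 of them with no rod gene. Of the 31 labelled wildtype, 19 had at least 3 rod genes (16 of them all 5) and 12 had at least 3 bipolar genes (10 of them all 4, and 5 of these 10 with no rod gene). No barcode in either library had 3 or more of both.

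The next paragraphs use barcodes with all 5 rod genes and 0 to 3 of the 12 microglia markers (rod type; 12 labelled knockout, 14 labelled wildtype) and those with at least 3 bipolar genes and as few microglia markers (bipolar type; 9 and 11). These limits were set after the counts had been seen. No barcode with 3 or more of the genes had 4 to 7 microglia markers, so the limit falls in a gap. The rod and bipolar genes that define the types, and the microglia markers that limit them, are given as a description.

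Gngt1 was the most abundant of the 5 rod genes in rod-type barcodes. Its lowest, median and highest counts per barcode were 12, 35.5 and 78 in the library labelled knockout and 28, 49 and 96 in the library labelled wildtype, or 33829.5 CPM (interval 30855 to 37013) and 40846 CPM (37984 to 43867) of the summed barcodes. The intervals do not overlap, with Gngt1 lower under the knockout label, but 12 and 14 barcodes of 1 library each carry no replicate error.

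Sag had 2, 7.5 and 44 counts per rod-type barcode (lowest, median, highest) in the library labelled knockout and 4, 8.5 and 31 in the library labelled wildtype. Its level was 10256 CPM (8649 to 12074) and 9035 CPM (7716.5 to 10514), within each other's counting error. Single barcodes spread widely and overlapped between the libraries. Rod-type barcodes were shallow, with a median of 1064 UMIs labelled knockout and 1299.5 labelled wildtype.

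Gnat1 stood at 8119 CPM (6697 to 9754) in rod-type barcodes labelled knockout, with 4, 9.5 and 20 counts per barcode, and at 6005 CPM (4940 to 7232) in those labelled wildtype, with 2, 8 and 15. Pdc was at 9045 CPM (7540 to 10762) and 8332 CPM (7068 to 9756), and Rcvrn at 6766 CPM (5474 to 8271) and 8494 CPM (7217 to 9931). The intervals of each of these 3 genes overlap between the libraries. All 4 bipolar genes were at 0 in every rod-type barcode, with exact upper limits of 263 CPM for each gene in the 14041 summed UMIs labelled knockout and 199.6 CPM in the 18484 labelled wildtype.

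Genes that did not choose the barcodes showed the same identity. Of 19 other rod genes, rod-type barcodes held between 11 and 19 (median 17) under the knockout label and between 15 and 19 (median 17) under the wildtype label. Pde6g, the inhibitory subunit of the rod phosphodiesterase, had 239 counts in the 12 barcodes with at least 3 rod genes labelled knockout and 420 in the 19 labelled wildtype. Rom1 and Prph2, which shape the outer segment discs, had 173 and 284 counts and 143 and 216 counts in the same barcodes. Both were also counted in bipolar barcodes: Rom1 had 27 counts in 9 of 9 with at least 3 bipolar genes labelled knockout and 17 in 11 of 12 labelled wildtype, and Prph2 16 counts in 8 of 9 and 16 in 7 of 12.

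Across all 4456 filtered cells of both libraries, the genes whose log-transformed counts followed the sum of the 5 rod genes closely included Prph2 (Pearson r 0.823), Pde6g (0.820) and Nrl (0.800), the transcription factor of rod fate. These correlations describe barcodes that share libraries and depth and are mostly set by the few rod barcodes. Vtn, which stood on the pericyte list, was also counted in these barcodes, with 41 counts in 12 of 12 with at least 3 rod genes labelled knockout and 75 counts in 16 of 19 labelled wildtype. The other 5 pericyte markers had no count in them.

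Bipolar-type barcodes were led by Pcp2 and Gng13. Pcp2 had 74, 93 and 124 counts per barcode (lowest, median, highest) in the library labelled knockout and 0, 71 and 128 in the library labelled wildtype, or 13670.0 CPM (12763 to 14625) and 12715 CPM (11773 to 13712). Gng13 had 61, 66 and 93 counts and 14, 42 and 74, or 10508 CPM (9714 to 11349) and 8697 CPM (7921 to 9528). Barcodes labelled wildtype reached lower in both genes, and they also included shallower barcodes, from 1484 UMIs, where the shallowest labelled knockout had 5441.

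Trpm1 had 11, 20 and 35 counts per bipolar-type barcode labelled knockout and 0, 11 and 21 per barcode labelled wildtype, at 3049 CPM (2628 to 3517) and 2264 CPM (1877 to 2707). Trnp1 had 14, 21 and 36 counts and 3, 19 and 34, at 3389 CPM (2945 to 3881) and 3811 CPM (3303 to 4374). The Gng13 intervals do not overlap, with the higher level under the knockout label. Those of the other 3 genes overlap.

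Other bipolar genes were again present without having been used. Bipolar-type barcodes held 11 to 13 of 16 (median 12) under the knockout label and 4 to 13 (median 10) under the wildtype label. The most abundant were Prkca, the kinase used as a marker of rod bipolar cells, Cabp5, a calcium-binding protein, Gnao1, the Go alpha subunit, and Car8, a protein related to carbonic anhydrases. The closest followers of the summed bipolar genes over all filtered cells were Cplx3 (r 0.909), a complexin of ribbon synapses, Car10 (0.886), Gm4792 (0.885) and Nap1l5 (0.865). Gnb3, a G protein beta subunit on the cone list that bipolar cells also use, had 125 counts in 9 of 9 barcodes with at least 3 bipolar genes labelled knockout and 131 counts in 11 of 12 labelled wildtype.

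The 5 rod genes had few counts in bipolar-type barcodes, with 3 in 2 of 9 labelled knockout and 21 in 5 of 11 labelled wildtype. Gnat1, Pdc and Rcvrn had 0 counts in all 9 labelled knockout and all 11 labelled wildtype. Sag had 3 counts in 2 of the 9 barcodes (48.6 CPM, 10.0 to 142) and 4 counts in 4 of the 11 (75.5 CPM, 20.6 to 193). Gngt1 was at 0 in the 9 labelled knockout but had 17 counts in 2 of the 11 labelled wildtype, 10 in 1 barcode of 2502 UMIs and 7 in another of 4425 UMIs.

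Ptprc, the gene of CD45 itself, was looked for in all barcodes with at least 3 of the genes, whatever their microglia markers. It had 0 counts in the 21 labelled knockout (upper limit 48.7 CPM) and 4 counts, all in 1 barcode, in the 31 labelled wildtype (39.5 CPM, 10.8 to 101). Microglia-like cells had 349 CPM (334 to 364) and 387 CPM (375 to 400.3), and the intervals lie apart in both libraries. Mitochondrial counts had medians of 6.60% and 5.88% in rod-type barcodes and 11.4% and 9.06% in bipolar-type barcodes, against 1.10% and 1.04% in microglia-like cells. The part of mitochondrial counts in these levels was not tested. All microglia-like cells had passed the cell filter. Of rod-type barcodes 11 of 12 and 14 of 14 had passed it, and of bipolar-type barcodes 8 of 9 and 10 of 11.

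In the same barcodes the 12 microglia markers together had 18 counts in 9 of 21 labelled knockout (238 CPM, 141 to 376) and 361 counts in 10 of 31 labelled wildtype (3566 CPM, 3207 to 3953). Of the wildtype-labelled counts, 349 were in the 3 barcodes described next. With at most 3 markers allowed, rod-type barcodes held 6 marker counts in 3 of 12 labelled knockout and 3 in 3 of 14 labelled wildtype, and bipolar-type barcodes 12 in 6 of 9 and 7 in 3 of 11; the limit on markers keeps these low.

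Barcodes with both kinds of RNA were few. No barcode labelled knockout with at least 3 of the genes carried 8 or more of the 12 microglia markers (0 of 21; exact upper limit 16.1%). In the library labelled wildtype 3 of the 31 barcodes did (9.68%, 2.04 to 25.8). The first had 2074 UMIs, 38 counts of rod genes and 49 of microglia markers. The second had 8112 UMIs, 146 and 217, with 4 Ptprc counts. The third had 8961 UMIs, 246 counts of bipolar genes and 83 of microglia markers. The intervals of the shares overlap. A cell labelled knockout with 11 of the 12 markers falls outside the rule, with 2 of the genes (13 Gng13 and 8 Trnp1 counts). It is described below. Whether the 3 barcodes are 2 cells in 1 droplet, cells that had taken up another or cells stuck together was not tested.

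Of the remaining wildtype-labelled barcodes, 1 had 28 counts of rod genes (18 of them Sag) with 7 of the 9 Müller glia markers in 8552 UMIs. Another 2, removed by the filter, had 3 rod genes with 8 and 6 of the 8 cone markers. Cones share several genes with rods, and in both barcodes the rod genes counted were Sag, Gngt1 and Rcvrn.

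**Figure D1:**
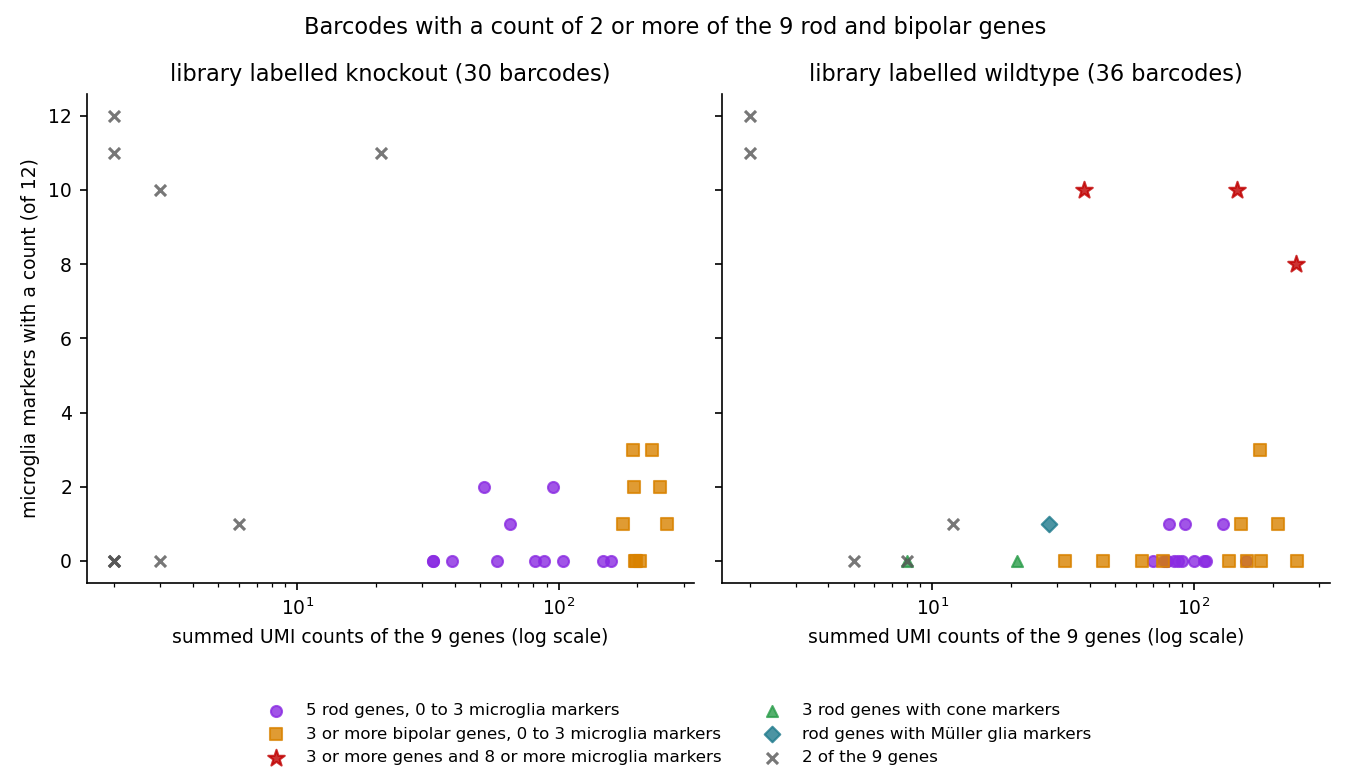
Each point is a barcode with at least 2 of the 9 genes, placed by the summed UMI counts of the 9 genes (log scale) and by how many of 12 microglia markers had a count, for the library labelled knockout (30 barcodes) and the library labelled wildtype (36). Rod-type and bipolar-type barcodes lie at 0 to 3 markers, and the 3 stars with 8 or 10 markers are in the library labelled wildtype.

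Outside these barcodes, 8 of the 9 genes were rare. The share of a gene's counts that lay in barcodes with at least 3 of the genes was between 94.1% (Trnp1) and 99.0% (Rcvrn) for those 8 in the library labelled knockout, and between 87.9% (Trpm1) and 99.0% (Pcp2) in the library labelled wildtype. Sag stood apart in both. Only 147 of its 263 counts labelled knockout (55.9%, 49.7 to 62.0) and 215 of its 363 counts labelled wildtype (59.2%, 54.0 to 64.3) were in such barcodes. Since a gene's own counts help to choose these barcodes, the shares are a description.

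Microglia-like cells made up 67.8% of filtered cells labelled knockout and 74.4% of those labelled wildtype. The Sag counts outside were mostly in microglia-like cells. These held 113 Sag counts in 80 of 1194 cells labelled knockout, or 18.5 CPM (15.2 to 22.2), and 138 counts in 108 of 2004 cells labelled wildtype, or 15.1 CPM (12.7 to 17.8). They were spread over many cells: 61 of the 80 had 1 Sag UMI, 8 had 2, 8 had 3 and 3 had 4, and in the library labelled wildtype 84 had 1, 19 had 2, 4 had 3 and 1 had 4. The library labelled wildtype includes a shallow barcode of 564 UMIs with 3 Sag counts, 4 cone markers and none of the microglia markers.

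In microglia-like cells the ratio of Sag, knockout label over wildtype label, was 1.23 (0.947 to 1.58; log2 ratio 0.29), and its interval includes 1. Under a stricter cell filter, with clusters made and named anew, the log2 ratio was 0.41 (0.03 to 0.78), which excludes 0. That setting named a cluster led by Fabp5, Spp1 and Lgals3 (38 and 34 cells) endothelial cell-like, outside the microglia-like class. In the main clustering the cluster with these leading genes had the lowest Sag level labelled knockout (2.77 CPM). The part of this naming in the ratio was not tested. Genes were counted as higher or lower by size alone, at 1.5-fold or more among those with at least 20 counts in both libraries together. Only Sag and Gng13 of the 9 genes reached 20 counts, and 1 of the 2 passed upward, where 3.73% of 11459 genes did; none passed downward, where 5.19% did (8.92% in either direction). The median log2 ratio of all tested genes was -0.02. With 2 genes tested, nothing can be read from that share.

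The gene that passed was Gng13, with 14 counts in 2 cells labelled knockout and 7 counts in 7 cells labelled wildtype (ratio 2.99, 1.13 to 8.76). However, 13 of the 14 came from 1 cell of 5071 UMIs, which also had 8 Trnp1 counts and 11 of the 12 microglia markers. Without that cell 1 count remained against 7, and the ratio turned to 0.214 (0.00475 to 1.67). The cell had neither Pcp2 nor Trpm1, but it had 5 counts of 3 of the 16 other bipolar genes.

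The other 7 genes had between 1 and 11 counts in microglia-like cells. Gngt1, the most abundant of the 5 rod genes in rod-type barcodes, had 7 counts labelled knockout (1.14 CPM, 0.460 to 2.36) and 9 labelled wildtype (0.983 CPM, 0.450 to 1.87). Gnat1 had 4 and 6 counts, Pdc 1 and 2, and Rcvrn 1 and 2. Pcp2 had 5 and 7 counts, Trpm1 2 and 5, and Trnp1 11 and 6. All 8 genes other than Sag summed to 45 counts in 24 cells labelled knockout (7.36 CPM, 5.37 to 9.85) and 44 counts in 40 cells labelled wildtype (4.81 CPM, 3.49 to 6.45). Without the Gng13-rich cell the 45 counts became 24 (3.93 CPM, 2.52 to 5.84), so that the order of the libraries turned round. It also turned when cells were named one by one, at 7.01 CPM (5.22 to 9.22) labelled knockout and 8.16 CPM (6.52 to 10.1) labelled wildtype. That naming takes the first of the 3 barcodes with both kinds of RNA as microglia-like. This barcode alone has 38 counts of rod genes, 3 of them Sag. The order without it was not tested. The 8 genes were also counted in Müller glia- or astrocyte-like cells with under 3 of the 9 genes. The level there was 29.96 CPM (10.996 to 65.2) on 6 counts labelled knockout and 18.47 CPM (5.998 to 43.1) on 5 labelled wildtype. Both lie above microglia-like cells, with intervals apart only under the knockout label. Monocyte-like cells had 2 counts labelled knockout (7.73 CPM, 0.936 to 27.9) and 0 labelled wildtype. These levels rest on few counts.

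**Figure D2:**
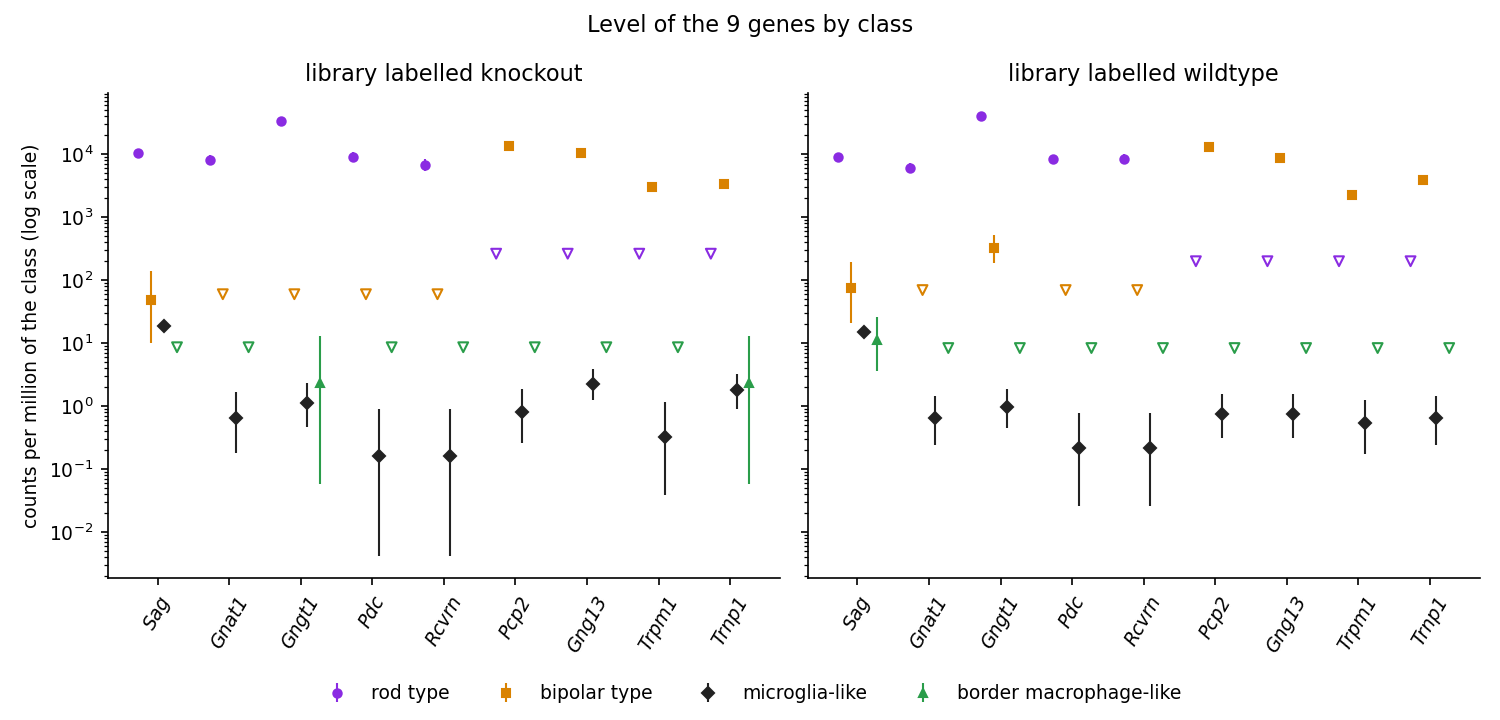
Level of each gene in CPM of a class (log scale) in rod-type and bipolar-type barcodes, microglia-like and border macrophage-like cells, with the library labelled knockout left of the library labelled wildtype. Bars are exact 95% Poisson intervals, and open triangles stand at the upper limit of a count of 0. Sag alone lies above 10 CPM in microglia-like cells, at 18.5 and 15.1 CPM.

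Sag and the other rod genes did not keep the ratio they have in rods. Among the counts of the 5 rod genes together, Sag made up 144 of 955 (15.1%, 12.9 to 17.5) in rod-type barcodes labelled knockout and 167 of 1344 (12.4%, 10.7 to 14.3) in those labelled wildtype. In microglia-like cells it made up 113 of 126 (89.7%, 83.003 to 94.4) and 138 of 157 (87.9%, 81.7 to 92.6). Gngt1 stood the other way round, at 49.7% (46.5 to 52.96) and 56.2% (53.5 to 58.8) in rod-type barcodes but 5.56% (2.26 to 11.1) and 5.73% (2.65 to 10.6) in microglia-like cells. A count of all 5 genes chose the rod type, so these shares are a description.

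Set against its level in rod-type barcodes, Sag in microglia-like cells stood at 0.180% (0.149 to 0.217) in the library labelled knockout and 0.167% (0.140 to 0.197) in the library labelled wildtype. The 4 other rod genes together stood at 0.00368% (0.00196 to 0.00629) and 0.00326% (0.00196 to 0.00509) of theirs, on 13 and 19 counts. The 4 bipolar genes stood at 0.0171% (0.0117 to 0.0241) and 0.00994% (0.00643 to 0.0147), the first of which includes the 21 counts of the Gng13-rich cell. These intervals cover the microglia-like sums only. In both libraries the intervals of Sag and of the other rod genes lie apart. The source of the Sag counts was not tested.

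**Figure D3:**
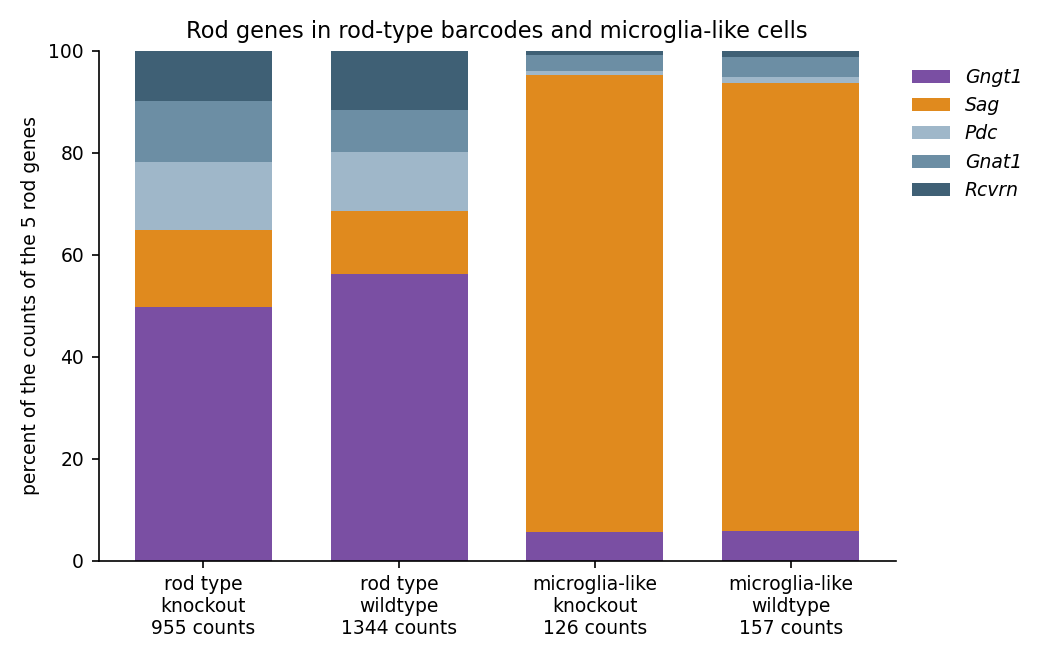
Share of each gene in the summed counts of the 5 rod genes, in rod-type barcodes and microglia-like cells, with the library labelled knockout left of the library labelled wildtype. Sag fills 15.1% and 12.4% of the bars of rod-type barcodes and 89.7% and 87.9% of those of microglia-like cells.

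Microglia-like cells with Sag rarely had another rod gene of the 9. Another was counted in 2 of 80 cells with Sag labelled knockout (2.50%, 0.304 to 8.74), against 10 of 1114 without Sag (0.898%, 0.431 to 1.64). In the library labelled wildtype it was 1 of 108 (0.926%, 0.0234 to 5.05), against 16 of 1896 without Sag (0.844%, 0.483 to 1.37). Cells with and without Sag had close depths, with medians of 4997 and 4756 UMIs labelled knockout and 4506.5 and 4258.5 labelled wildtype. The intervals overlap, so no joint occurrence was detectable at this depth.

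Sag was uneven between classes. After thinning to 1000 UMIs it was seen in 20 of 1178 microglia-like cells labelled knockout (1.70%, 1.04 to 2.61) and 24 of 1969 labelled wildtype (1.22%, 0.782 to 1.81); unthinned, the shares were 6.70% and 5.39%. Lymphocyte-, monocyte- and neutrophil-like cells, which should lack it, had 0 of 80 and 0 of 52 (up to 3.75% and 5.77%). Their unthinned medians were 4372 and 3253 UMIs. Both limits lie above the thinned shares of microglia-like cells, so these shares cannot tell the classes apart. The summed UMIs of the lymphocyte-, monocyte- and neutrophil-like cells held no Sag count. In the library labelled knockout this gives an upper limit of 8.12 CPM, below the interval of microglia-like cells. In the library labelled wildtype the limit is 15.7 CPM and overlaps it. The unnamed Ttr-led cluster had 3 counts (4.78 CPM, 0.987 to 13.98) and 2 counts (2.66 CPM, 0.322 to 9.61), below microglia-like cells of the same library in both cases. Its median depth was lower, at 1782 and 1473.5 UMIs. Bipolar-type barcodes had Sag at 48.6 CPM (10.0 to 142) labelled knockout and 75.5 CPM (20.6 to 193) labelled wildtype, on 3 and 4 counts. Both values lie above those of microglia-like cells, with intervals apart only under the wildtype label.

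Border macrophage-like cells, 106 in each library, held few counts of the 9 genes. Sag was at 0 in 106 cells labelled knockout (upper limit 8.62 CPM) and had 5 counts in 4 of 106 cells labelled wildtype (11.3 CPM, 3.68 to 26.5). Of the other 8 genes, Gngt1 and Trnp1 had 1 count each under the knockout label, and all 8 were at 0 under the wildtype label. None of the 9 reached 20 counts, so none was compared by size; among the 4940 genes that did, 10.8% were higher and 12.1% lower (22.9% in either direction). The upper limit labelled knockout lies below the interval of microglia-like cells of that library, while the interval labelled wildtype overlaps that of its microglia-like cells. The order rests on 0 counts against 5. All 5 stood in the cluster led by Ms4a7, Apoe and H2-Eb1 (13.7 CPM, 4.44 to 31.9).

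All 10 microglia-like clusters had Sag in both libraries, from 1 to 40 counts per cluster labelled knockout and from 1 to 31 labelled wildtype. In the library labelled knockout its level ranged between 2.77 CPM (0.0702 to 15.4) in the cluster led by Fabp5, Spp1 and Lgals3 and 94.1 CPM (43.0 to 179) in the cluster led by mt-Co3, a mitochondrial gene. In the library labelled wildtype the same clusters stood at 15.05 CPM (3.103 to 43.98) and 22.6 CPM (6.15 to 57.8). The lowest there was the cluster led by Ifit3, Isg15 and Cxcl10, interferon-response genes, at 2.64 CPM (0.0669 to 14.7). The value of 94.1 CPM rests on 9 counts in cells of low depth (median 1620.5 UMIs).

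Sag levels were lower in deeper cells in both libraries. With microglia-like cells in 3 bins of UMI count, it was 28.6, 21.7 and 14.5 CPM in the lowest, middle and highest bin labelled knockout and 18.8, 17.0 and 11.6 CPM labelled wildtype. The intervals of the lowest and highest bins overlap in both (18.3 to 42.5 against 10.8 to 19.02, and 13.5 to 25.5 against 8.49 to 15.5). Cells with a Sag UMI were 16 of 320, 27 of 388 and 37 of 486 in these bins labelled knockout, and 31 of 746, 40 of 678 and 37 of 580 labelled wildtype. The part of depth in these levels was not tested.

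**Figure D4:**
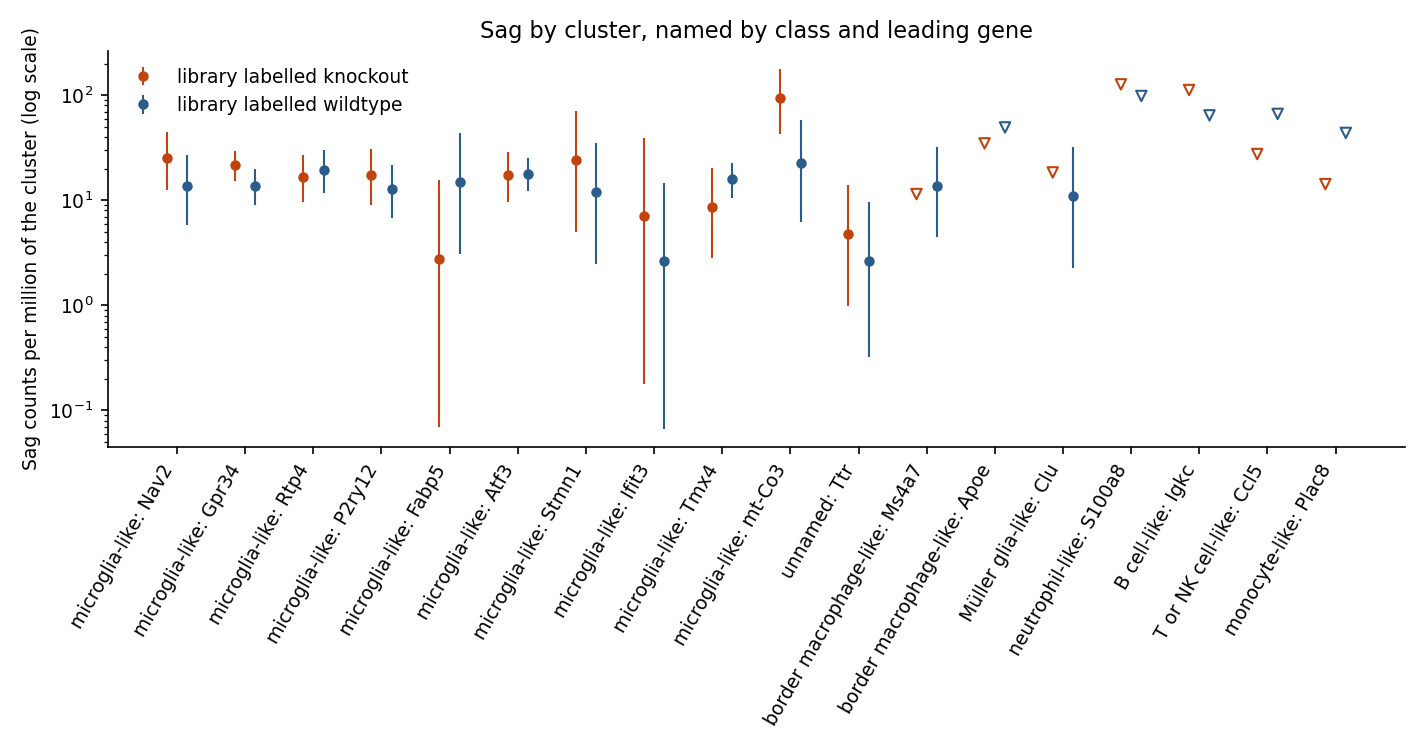
Sag level in CPM (log scale) in each cluster, named by class and leading gene, with the library labelled knockout left of the library labelled wildtype. Bars are exact 95% Poisson intervals, and open triangles mark the upper limit of a count of 0. Most microglia-like clusters lie between 10 and 30 CPM with overlapping intervals, and lymphocyte-, monocyte- and neutrophil-like clusters have no Sag count.

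Other genes of phototransduction showed which pattern was usual. Over both libraries, the 19 other rod genes had a median of 95.1% of their counts in barcodes with at least 3 of the 9 genes, and 14 of 19 were above 90%. Pde6b and Rbp3 had no count in microglia-like cells of either library. At the other end stood Guca1a, the calcium-dependent activator of guanylate cyclase, with 14.1% and 20.2% in those barcodes. It had 245 counts in microglia-like cells labelled knockout (40.1 CPM) and 258 in those labelled wildtype (28.2 CPM), a ratio of 1.42 (1.19 to 1.70). Guca1a and Prkca, chosen here after their values were seen, are the only 2 genes of the 35 with over 20 counts in microglia-like cells of a single library.

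Prkca, on the bipolar list, had 252 and 306 counts in microglia-like cells (41.2 and 33.4 CPM; ratio 1.23, 1.04 to 1.46), and 42.0% and 26.1% of its counts lay in the barcodes with at least 3 of the genes. In microglia-like cells Pde6a had 13 and 14 counts, Cnga1 13 and 6, Slc24a1 10 and 10 and Rom1 9 and 16. Of the 16 other bipolar genes, Gpr179, Lrtm1, Otx2, Lhx4 and Vsx1 had none in microglia-like cells of either library.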

How the data were processed

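The authors deposited 1 table of raw counts per library (genes in rows, barcodes in columns; whole UMI counts, not normalized). Per the labels' protocols the libraries were made with the 10x Chromium 3' kit, which counts molecules near their 3' ends, so that counts were not divided by gene length. The submitters' processing notes name Cell Ranger 3.1 and the build mm10; filters before deposit and strand settings are not given in the sources used here.

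Barcodes with under 500 UMIs, under 250 genes or over 15% mitochondrial counts were left out (24 labelled knockout, 40 labelled wildtype). After scaling each cell to 10000 counts and taking logs, both libraries were clustered jointly in scanpy 1.11.5 (2000 variable genes, less the rod and bipolar genes among them, which left 1959; 30 components, 15 neighbours, Leiden resolution 1, seed 0), then named from marker lists by the 10 leading genes (50 CPM added; at least 3 markers) or by relative level. A cluster led by another class's marker stayed unnamed, a step settled after the clusters had been seen. Scrublet called 0 of 1761 and 3 of 2695 cells (0.111%), so it did not work, and doublets were not removed. The 9 genes and the lists were chosen with earlier results of these data known.

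Counts were summed per class and library and given as CPM. Intervals are exact Poisson for sums, Clopper-Pearson for shares and the split of counts for ratios, with the exact upper limit for a sum of 0 and 3 cells for a thinned share of 0. The ratio step was tested on simulated data. Genes named beside the 9 were the 4 closest by correlation (in at least 20 barcodes), the 4 most abundant other rod and other bipolar genes and the most abundant markers of other classes in barcodes with at least 3 members, with Igfbpl1 and Ptprc; further genes were named after their values had been seen, and some that the rule takes are not reported here. Alternatives were another cell filter, clustering, naming, thinning depth, scaling and count minimum.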

Additional observations from a re-analysis of the deposited data

How the results depend on the processing

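No paired analysis was possible because each group has 1 library. The share of barcodes with at least 3 of the genes labelled knockout moved to 0.419% under the stricter filter (1000 UMIs, 500 genes, 10% mitochondrial), against 0.861% labelled wildtype: rod-type barcodes of that library have a median of 1064 UMIs and bipolar-type ones a median of 11.4% mitochondrial counts. With a minimum of 50 counts, 224 genes were higher and 326 lower by 1.5-fold, since fewer genes are compared. Naming cells one by one gave Sag 62.9% of the counts of the 9 genes in microglia-like cells labelled wildtype. The other 8 genes stood at 7.01 CPM labelled knockout and 8.16 CPM labelled wildtype. These wildtype-labelled values include 1 barcode with both kinds of RNA (38 counts of rod genes, 3 of them Sag), whose part was not tested. The same naming put so few cells among border macrophage-like ones that the 9 genes stood at 0 CPM. The upper limits there were 1139.6 CPM labelled knockout and 102 CPM labelled wildtype. The stricter filter also gave 0 CPM there under the knockout label. Thinning to 2000 UMIs raised the Sag share to 3.12% labelled knockout and 2.66% labelled wildtype, as more UMIs per cell were kept. Without the 1 Gng13-rich cell, an alternative chosen after seeing the data, the log2 ratio of Gng13 reversed to -2.22, the 8 genes labelled knockout moved to 3.93 CPM and Sag to 82.5% of the 9 genes. The Sag log2 ratio lay between 0.21 (cells named one by one) and 0.41 (stricter filter) over the alternatives run. Its interval excluded 0 under the stricter filter (0.03 to 0.78), which also named clusters anew and took a Fabp5-led cluster out of the microglia-like class. Counting the unnamed Ttr-led cluster as microglia-like, also chosen after seeing the data, moved none of these values past its counting interval. Of 89 alternative values, 76 stayed within the counting interval of the main value, or within 1.5-fold for numbers of genes. The order of the libraries was not part of that limit. Leaving out barcodes with at least 3 of the genes could move nothing, since no microglia-like or border macrophage-like cell was among them. Some others were also fixed in advance, such as the Ttr-led cluster for border macrophage-like cells. The 76 is therefore no measure of stability. Depth limits what can be said of genes with a few counts.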
